A study of Mus musculus with 18 samples.

Results

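Mir21a is the mouse hairpin locus of miR-21, and it was 1 of 2009 miRNA loci listed in the count files (identifier ENSMUSG00000065455). It was chosen by its counts over the 4 groups described here, so its levels and differences are given as a description, with no test. Of the 2009 loci, 689 had a count in any library and 245 passed the filter on low counts, Mir21a among them. The locus lies on chromosome 11 from 86584067 to 86584158 on the minus strand (GRCm38). In the GENCODE annotation it falls within exon 12 of the transcript Vmp1-201, in the 3′ UTR of Vmp1, a gene for a membrane protein of autophagy.

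Small RNA was sequenced from adipose stromal cells (ASC), the fibroblast-like cells of fat tissue, and from the extracellular vesicles (EV) that such cells release. The 18 libraries formed 4 groups. Naive EV (n = 5) and naive ASC (n = 4) came from cells without pretreatment. Primed EV (n = 5) and primed ASC (n = 4) came from cells given interferon gamma for 24 h. All cells then spent 48 h in alpha MEM with 2% EV-free serum. The labels of all 18 samples give adult mice of strain NGL and adipose tissue. They also give 1 molecule subtype, EV miRNA, to every sample, so cells and vesicles were told apart by the source names. Cell RNA was prepared with TRIzol followed by RNeasy columns and EV RNA with a SeraMir kit, so the kind of sample and the kind of isolation cannot be told apart in any EV against ASC comparison. The labels do not say whether replicates are separate animals or cultures, and p-values therefore measure only the spread between these samples.

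A miRNA hairpin is cut into a short duplex, and 1 arm is loaded into an Argonaute protein, where bases 2 to 8 of the arm, the seed, pair with target messages. miR-21 is abundant in many growing, injured and inflamed tissues, and its transcription responds to AP-1 and STAT3. Its known targets include Pdcd4, Spry1 and Reck, and it has been studied widely in fibrosis. EVs carry small RNA between cells, and vesicles of mesenchymal cells often hold miR-21.

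The reads were counted for the whole hairpin and regardless of strand, so the values below do not part the 5p arm from the 3p arm. The sequences of both arms are shown with those of the loci annotated as copies, Mir21b and Mir21c, because reads of near-identical copies could be miscounted. Capitals mark the seed, and the sequences are from RefSeq (GRCm38.p6), written 5′ to 3′.
miR-21a-5p: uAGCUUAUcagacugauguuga
miR-21a-3p: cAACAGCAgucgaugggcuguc
miR-21b: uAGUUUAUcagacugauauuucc
miR-21c: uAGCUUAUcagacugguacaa
Counted from the 5′ end of miR-21a-5p, miR-21b carried C4U, G18A, G21U and A22C, and C4U falls inside the seed. miR-21c kept the first 15 bases, and with them the seed, and carried A16G, G18A, U19C, U20A and G21A. Among 1738 mature miRNAs of the RefSeq table, 2 held the seed of miR-21a-5p. They were miR-21a-5p itself and miR-21c.

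Mir21b (chromosome 3) and Mir21c (chromosome 8) had 0 counts in all 18 libraries. A count of 0 allows a share of up to 0.00166% in the shallowest library, for counting error only. The complete miR-21a-5p sequence occurred in 1 of 1005 hairpins, that of Mir21a. Whether reads too short to reach base 16 were dropped as mapping to several places was not tested.

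Total counts ranged from 180812 (primed ASC 4) to 3052942 (primed EV 2), and 303 to 423 loci had counts in a library. Mir21a was counted 3348 times in the library with the fewest and 316787 times in the library with the most. With 3348 of 180812 counts its share was 1.85%, with an exact 95% binomial (Clopper-Pearson) interval of 1.79% to 1.91%. Such intervals cover counting error only, since reads carried no molecular identifiers, and they were far narrower than the spread between libraries.

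Mir21a was a leading miRNA of the vesicles and held a smaller share in the cells. Its share of all miRNA counts was 11.0% ± 0.823 in naive EV and 10.4% ± 0.694 in primed EV (SD, n = 5 each). In cells it was 1.78% ± 0.439 without priming and 1.44% ± 0.286 with it (SD, n = 4 each). The order was the same by median, at 11.1%, 10.4%, 1.88% and 1.34%. Neighbours in that order overlapped within EV and within ASC, whereas no EV library overlapped any ASC library. In these bulk samples, more Mir21a per vesicle and a different mixture of vesicles cannot be told apart.

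In naive EV 1 to 5, Mir21a made up 11.7%, 10.9%, 9.71%, 11.7% and 11.1% of counts. In primed EV 1 to 5 it made up 10.4%, 10.4%, 10.1%, 9.58% and 11.5%. Mir21a ranked 3 in each of the 10 vesicle libraries. The loci above it were Mir22, a miRNA of growth control and metabolism, and Mir143, a miRNA of smooth muscle and fibroblasts.

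In naive ASC 1, 3, 4 and 5, Mir21a made up 1.70%, 2.17%, 2.07% and 1.20% of counts. In primed ASC 2, 3, 4 and 5 it made up 1.22%, 1.41%, 1.85% and 1.27%. The lowest cell library was naive ASC 5, where Mir21a ranked 22. In the other naive ASC libraries it ranked 10 to 12 and in primed ASC 12 to 16.

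**Figure D1:**
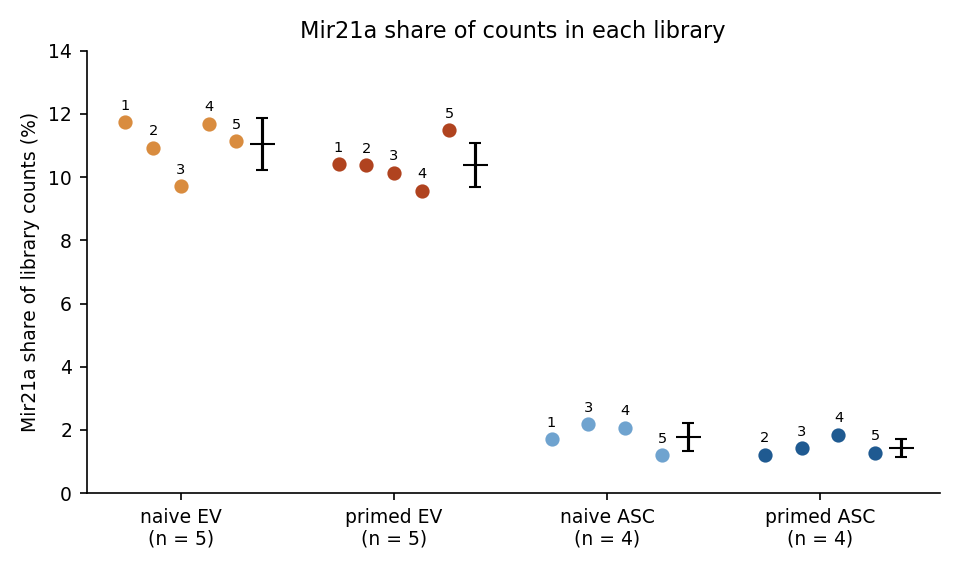
Share of library counts at Mir21a (%) in each of the 18 libraries, with numbers for the replicates and black bars for the mean and SD of each group. The 10 EV libraries lay between 9.58% and 11.7%, and the 8 ASC libraries between 1.20% and 2.17%.

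The gap between vesicles and cells was measured on several scales, because a share also moves with the other abundant loci. The lowest naive EV share, 9.71% in naive EV 3, was 4.47 times the highest naive ASC share, 2.17% in naive ASC 3. In primed samples the lowest EV share, 9.58%, was 5.17 times the highest ASC share, 1.85%. On CPM, the counts scaled to a common total with TMM size factors, the lowest EV library was 5.48 times the highest ASC library in naive samples and 8.50 times in primed samples.

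Group means of CPM were 120140 ± 13907 in naive EV and 138413 ± 12276 in primed EV (SD, n = 5 each), against 14329 ± 4746 in naive ASC and 11610 ± 1662 in primed ASC (SD, n = 4 each). From the fit over all loci, the log2 fold change of Mir21a was 3.07 (SE 0.22) in naive EV against naive ASC, or 8.38-fold. It was 3.58 (SE 0.22) in primed EV against primed ASC, or 11.9-fold. With library totals alone in place of TMM these values were 2.63 and 2.85.

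The choice of scaling moved every locus together. Scaled by library totals alone, the 245 loci had a median of -0.70 in naive and -0.69 in primed samples (log2 fold change), against -0.24 and 0.02 with TMM. Measured from that median, Mir21a stood at 3.30 in naive samples with TMM and at 3.33 with library totals. In primed samples it stood at 3.56 and 3.54 above the median locus. A change of scaling shifts all loci by about the same amount. The distance from the median locus therefore had to stay nearly the same, and it is no check of the scaling.

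Mir21a was also higher in vesicles relative to the other abundant vesicle miRNAs. This comparison needs no library total, since both counts come from 1 library. Per count of Mir22 there were 0.407 ± 0.0484 counts of Mir21a in naive EV (n = 5) and 0.366 ± 0.0374 in primed EV (n = 5). In naive ASC there were 0.119 ± 0.0197 (n = 4) and in primed ASC 0.0986 ± 0.0281 (n = 4). The lowest EV ratio was 2.41 times the highest ASC ratio in naive samples and 2.32 times in primed samples. Per count of Mir143 the corresponding gaps were 3.10 and 1.56 times. Without Mir22 and Mir143 in the total, Mir21a took 22.0% of the remaining counts in naive EV, 21.3% in primed EV, 2.62% in naive ASC and 1.85% in primed ASC.

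Several titles carry a number that EV and ASC samples share. In naive samples the CPM of the EV library over that of the ASC library with the same number was 9.12 for 1+2, 6.57 for 3, 8.04 for 4 and 14.6 for 5. In primed samples it was 11.9 for number 2, 11.9 for 3 and 10.2 for 4. Number 5 was carried by primed EV 1 and primed EV 5, at 13.2 and 13.5 times primed ASC 5. The vesicle library was higher in all 9 of these pairings, and the widest, 14.6, rested on naive ASC 5, the lowest cell library. Without naive ASC 5 the log2 fold change in naive samples was 2.98.

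**Figure D2:**
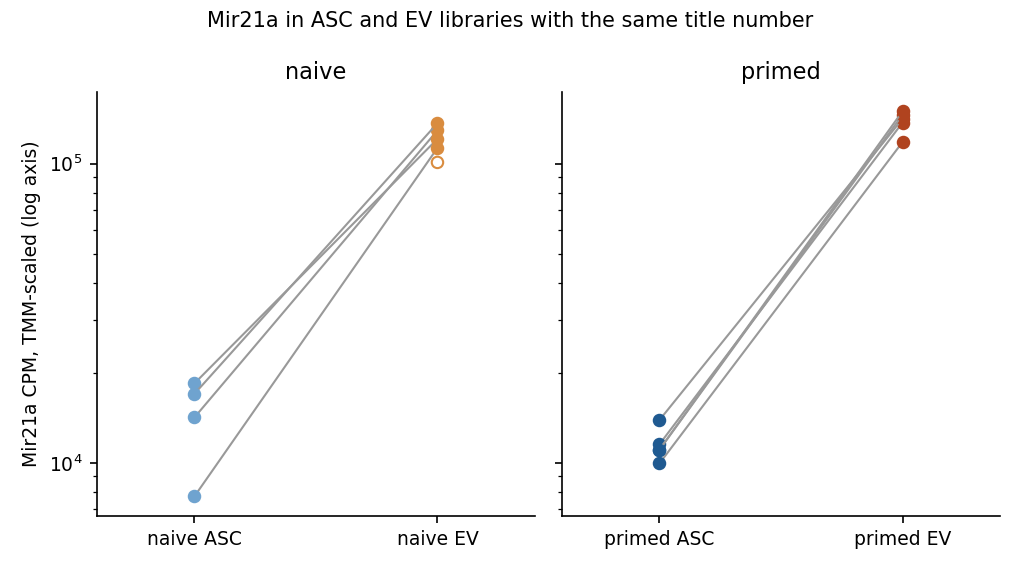
Mir21a in CPM (log axis) in ASC and EV libraries, with lines joining libraries of the same title number, in naive (left) and primed (right) samples. All 9 lines rise, from 7720 to 18422 CPM in the joined ASC libraries to at least 112896 CPM in naive EV and 118107 CPM in primed EV. The open circle is naive EV 2, for which no naive ASC library is numbered 2 alone.

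Differences between vesicles and cells were common among the loci. In edgeR's quasi-likelihood fit (p-values adjusted over 245 loci by Benjamini-Hochberg), 82 loci (33.5%) were higher and 80 (32.7%) lower in naive EV than in naive ASC. In primed samples 88 (35.9%) were higher and 79 (32.2%) lower. With library totals alone the split was 65 higher and 116 lower in naive samples, and 58 and 118 in primed samples. Mir21a was chosen on these values and is not read against these shares.

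By the size of its fold change Mir21a ranked 25 of 245 in naive and 23 of 245 in primed samples. The 24 loci above it in naive samples summed to 2.36% of naive EV counts, and the most abundant of them, Mir30e, held 0.650%. The 22 loci above it in primed samples summed to 1.18%, and the most abundant, the endothelial Mir126a, held 0.351%. Mir21a thus held more vesicle counts than all loci of higher fold change together.

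Its immediate neighbours in fold change were scarce loci, apart from Mir30e. In naive samples Mir190a (log2 fold change 3.37), Mir200a (3.36) and Mir30e (3.24) stood just above, and Mir147 (3.02), Mir338 (2.82) and Mir376a (2.81) just below. In primed samples Mir150 (3.71), Mir20a (3.71) and Mir190a (3.62) stood just above, and Mir376a (3.50), Mir147 (3.45) and Mir30e (3.34) just below. Mir190a was counted 2 to 5 times in a naive ASC library, whereas Mir21a was counted at least 6252 times there.

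Of the 24 loci with a mean share of at least 1% in any group, Mir21a had the highest EV against ASC fold change in both states. In naive samples, where Mir21a was 8.38-fold higher in EV, the next were Mirlet7i at 2.61-fold, Mir22 at 2.34-fold and Mir143 at 2.22-fold. In primed samples, where Mir21a was 11.9-fold higher, the next were Mir143 at 4.99-fold, Mirlet7i at 3.77-fold and Mir22 at 3.14-fold. Of the 24 abundant loci 17 had a negative log2 fold change in naive samples and 13 in primed samples. Those at the far end included Mir145a (log2 fold change -2.79 in naive samples), transcribed with Mir143 from 1 precursor, and Mir125b-1 (-2.24) and Mir125a (-2.23), relatives of the worm lin-4.

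**Figure D3:**
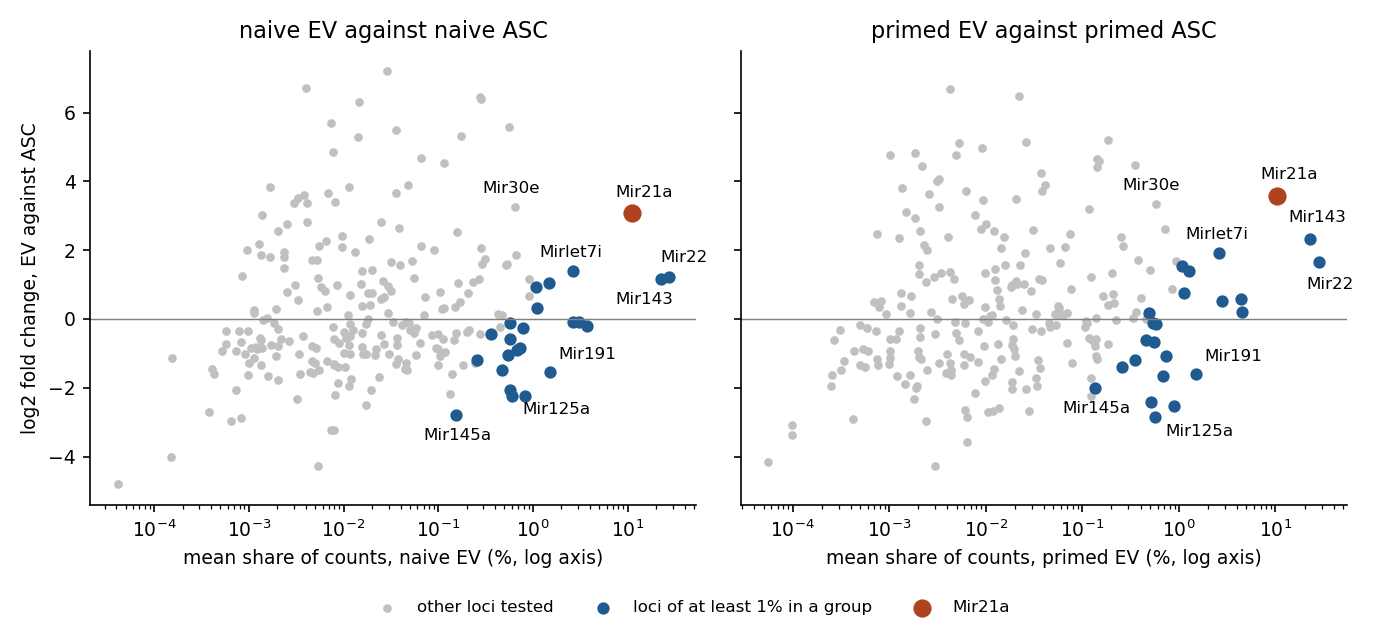
log2 fold change of EV against ASC for the 245 loci tested, plotted against the mean share of counts in EV (%, log axis), in naive (left) and primed (right) samples. Mir21a (red), at 3.07 and 3.58, sits above the other 23 loci with at least 1% of counts in a group (blue), and the grey loci above it hold less than 1% each.

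The Mir21a share was also among the steadier ones between vesicle preparations. Its coefficient of variation was 7.46% in naive EV and 6.68% in primed EV, which ranked 3 and 5 from the lowest among the 24 abundant loci. The medians of those loci were 15.6% and 13.2%. The loci above Mir21a in vesicles varied by similar amounts, Mir22 by 6.90% and 4.28% and Mir143 by 8.08% and 11.9%. On CPM, Mir21a itself varied by 11.6% in naive EV and 8.87% in primed EV. In cells its share varied more, by 24.6% in naive ASC and 19.8% in primed ASC, near the medians of 26.9% and 20.4%.

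The differences of Mir21a with interferon gamma priming were small beside those between vesicles and cells. In EV its mean share was lower after priming (10.4% against 11.0%) while its mean CPM was higher (138413 against 120140), so the direction turned with the scale. The log2 fold change was 0.20 (SE 0.18) with TMM and -0.09 with library totals alone. Measured from the median locus it was 0.18 and 0.16. Naive and primed EV libraries overlapped on both scales.

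In number-matched EV pairs the primed over naive ratio of CPM was 1.17 for number 2, 1.13 for 3 and 1.03 for 4. For number 5 it was 1.29 in primed EV 1 and 1.33 in primed EV 5, against the same naive EV 5. The ratio of shares in those pairs, in the same order, was 0.95, 1.04, 0.819, 0.935 and 1.03. Shares were thus higher after priming in 2 pairings and lower in 3.

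In ASC the log2 fold change of priming was -0.30 (SE 0.20). The primed over naive CPM ratio was 0.626 for number 3, 0.818 for 4 and 1.43 for 5, so the pairs did not share a direction. Leaving out naive ASC 5 gave -0.43. The priming difference in EV minus that in ASC was 0.51 (SE 0.27), and it ran from 0.22 to 0.58 when 1 library at a time was left out.

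Few other loci passed the test for priming in vesicles. By edgeR's quasi-likelihood test 2 of 245 loci (0.816%) passed in EV, Mir147 and Mir140, and 25 loci had an unadjusted p under 0.05. In ASC 25 loci (10.2%) passed. Mir147, which inflammatory stimuli induce in macrophages, stood next to Mir21a in EV against ASC fold change but was far scarcer. It was counted 6 to 19 times in a naive EV library and 24 to 244 times in a primed one. In EV it rose by 3.14 log2 units with priming (SE 0.49, adjusted p = 0.00083), where Mir21a differed by 0.20.

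**Figure D4:**
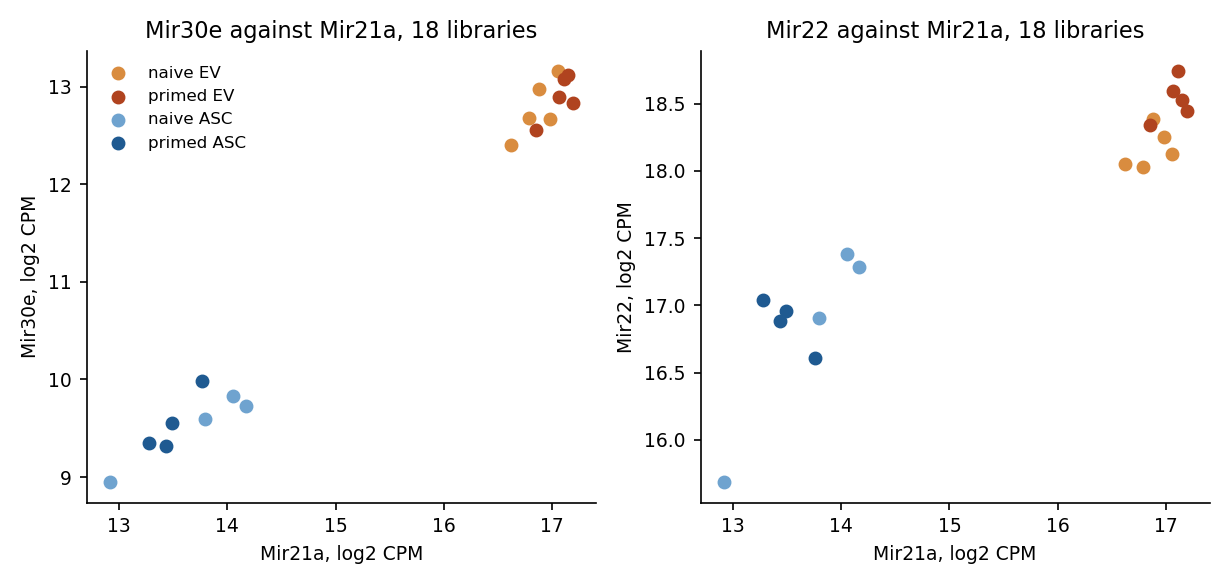
log2 CPM of Mir30e (left) and Mir22 (right) against Mir21a in the 18 libraries, coloured by group. EV and ASC libraries form separate clusters in both plots, and within the ASC cluster naive ASC 5 is the lowest library for all of these loci.

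Mir30e, a member of the miR-30 family and common in many tissues, had the profile most like that of Mir21a by Pearson r. Its Pearson r with Mir21a over the 18 libraries, on log2 CPM, was 0.995 (Spearman rho 0.922). By rho Mir30e fell outside the 5 most alike loci, and Mirlet7f-1 stood above it. The Pearson r mostly reflects the gap between the EV and ASC clusters, and all points share the libraries' scaling. For the deviations of each library from its own group mean, r was 0.848, the highest of the 244 other loci. It was 0.795 over the 10 EV libraries and 0.923 over the 8 ASC libraries, of which naive ASC 5 was the lowest for both loci. With library totals alone the within-group r was 0.740, again the highest.

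Mir21a and Mir30e kept a similar ratio in all groups. There were 17.1 ± 2.19 counts of Mir21a per count of Mir30e in naive EV and 18.2 ± 1.87 in primed EV (SD, n = 5 each), against 18.6 ± 2.48 in naive ASC and 15.4 ± 1.49 in primed ASC (SD, n = 4 each). Over all 18 libraries it ran from 13.7 to 21.8. The EV and ASC libraries overlapped for this ratio, unlike for the ratio to Mir22. Mir30e was picked for its likeness to Mir21a, so a steady ratio follows in part from that choice. The log2 fold changes of Mir30e, given without a test since its likeness to Mir21a chose it, were 3.24 (SE 0.23) in naive and 3.34 (SE 0.23) in primed samples.

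Mirlet7f-1 (r 0.980), Mir340 (0.979), Mir542 (0.977) and Mir376a (0.977) followed Mir30e over the 18 libraries. Within groups Mir30e was followed by Mir143 (r 0.817), Mir22 (0.788), Mir30a (0.775) and Mir24-2 (0.750). The within-group r was 0.634 for Mirlet7f-1, 0.509 for Mir542, 0.369 for Mir340 and 0.286 for Mir376a. By Spearman rho over the 18 libraries Mir340 ranked 22 and Mir376a 43. The loci called Mirlet7f-1 and Mir376a are annotated in the files on the strand opposite to the RefSeq hairpin, and counting regardless of strand takes in reads of both. RefSeq also places Mir3074-2 at Mir24-2, on the other strand. The mature arms of the 5 loci most like Mir21a by Pearson r are shown to compare their seeds (capitals) with those of miR-21a.
miR-30e-5p: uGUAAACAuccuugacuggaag
miR-30e-3p: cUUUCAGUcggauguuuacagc
let-7f-5p: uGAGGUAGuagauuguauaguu
let-7f-1-3p: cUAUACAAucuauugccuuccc
miR-340-5p: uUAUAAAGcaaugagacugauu
miR-340-3p: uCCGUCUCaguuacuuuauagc
miR-542-5p: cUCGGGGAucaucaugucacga
miR-542-3p: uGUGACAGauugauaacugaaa
miR-376a-5p: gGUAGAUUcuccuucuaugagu
miR-376a-3p: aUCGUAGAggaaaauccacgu
None of these 10 arms had the seed of either miR-21a arm. The loci lie on chromosome 4 (Mir30e), 13 (Mirlet7f-1), 11 (Mir340), X (Mir542) and 12 (Mir376a), so only Mir340 shares a chromosome with Mir21a.

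Short sequence motifs of mature miRNAs, GGAG among them, have been linked to loading into vesicles. A stretch of miR-21a-5p outside the seed, CAGAC, and GGAG were each looked up in both arms of each locus, 5′ to 3′. CAGAC lies in miR-21a-5p and in an arm of 3 other tested loci. It is in capitals here.
miR-21a-5p: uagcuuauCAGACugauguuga
miR-199a-5p: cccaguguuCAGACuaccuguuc
miR-214-3p: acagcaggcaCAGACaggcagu
miR-429-5p: gucuuacCAGACaugguuaga
The motif was in 1.75% of 228 tested loci with a RefSeq arm and in 3.02% of 1058 loci of the RefSeq table. Mir214, a fibroblast miRNA, fell by 2.17 log2 units in naive EV against naive ASC (SE 0.23, adjusted p = 1.2e-07 by edgeR). For Mir199a-2 the naive log2 fold change was -0.08 (SE 0.30). That of the epithelial Mir429, a scarce locus, was 2.27 (SE 1.33), and neither passed the test. In primed samples Mir199a-2 (1.13) and Mir429 (4.81) were higher in EV and Mir214 (-2.23) lower. The calls of loci higher in EV fell from 2 to 1 with RLE, TMMwsp or limma-voom and to 0 with library totals alone. Of all 245 loci, 33.5% were higher and 32.7% lower in naive samples, and 35.9% and 32.2% in primed samples.

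GGAG was in neither arm of Mir21a. It was in 37 of the 228 tested loci (16.2%) and in 22.3% of the RefSeq table, and the motifs do not overlap each other. In naive samples, where 33.5% of all loci were higher and 32.7% lower, 1 of the 37 was higher in EV and 21 were lower. The median log2 fold change of the 37 was -1.06, against -0.24 for all tested loci except Mir21a, the 37 included. In primed samples, where 35.9% of all loci were higher and 32.2% lower, 4 were higher and 22 lower, with a median of -1.23 against 0.01. The most abundant of the 37, Mir125b-1 and Mir125a, are 2 of the loci with the lowest fold changes among the abundant ones. A match is a description of letters, not a binding site. It could lie in either arm, whereas counts took in the whole hairpin. The values therefore do not show whether the arm that holds GGAG was itself lower in EV.

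The base composition of hairpins was set beside the fold changes after the data were seen. The GC content of the Mir21a hairpin was 45.7%, against a median of 50.0% over the 215 tested loci (87.8%) with a RefSeq hairpin. Of 84 loci within 5 percentage points, 72 had a lower EV against ASC fold change than Mir21a in naive samples and 72 in primed samples. Among all 245 loci Mir21a ranked 25 and 23, so it did not stand out more among loci of like GC content. Mir21a was chosen on these values, and its place is a description only. The medians of the 84 loci were 0.31 and 0.28. Across the 215 loci, which share libraries and are not independent, r of log2 fold change with GC was -0.24 in naive and -0.34 in primed samples.

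The lists used here were drawn up with results of these data known. Of 23 loci linked to fibrosis, where Mir21a is also studied, 17 were tested. In naive samples 7 were higher and 4 lower in EV, and in primed samples 8 and 3, beside 33.5% higher and 32.7% lower of all 245 loci in naive and 35.9% and 32.2% in primed samples. The list had medians of 0.41 and 1.11, against -0.24 and 0.01 for all tested loci except Mir21a, the list included. With library totals alone the counts were 6 higher and 5 lower in each state. Mir29c (log2 fold change 3.39 in naive samples), of a family that targets collagens, was higher in EV, whereas Mir29b-1 of the same family was lower (-2.70). Mir145a was lower (-2.79). Mir24-2, whose place RefSeq also gives to Mir3074-2 on the other strand, was higher (2.11). With priming 1 of the 17 passed in ASC, beside 10.2% of all 245 loci. It was Mir143, which fell by 0.89 log2 units. In EV 0 passed by edgeR, DESeq2 or limma-voom, and 0 had an unadjusted p under 0.05. Of all 245 loci 0.816% passed in EV by edgeR.

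Of 12 loci that inflammatory factors induce, 8 were tested. Mir301 and Mir147 were higher in naive EV, and none was lower. In primed samples Mir301, Mir147 and Mir221 were higher and Mir222 lower. The counts higher, 2 and 3 of 8, lay near the 33.5% and 35.9% of all loci. Medians were 0.42 and 0.28, against -0.24 and 0.01 for all tested loci except Mir21a, the list included. With TMMwsp or library totals 2 of the 8 were higher in primed samples. Mir155 and Mir146, the best known of these, had naive log2 fold changes of -0.46 (SE 0.27) and 0.82 (SE 0.50) and passed in neither state. With library totals alone 3 of the 8 were lower in each state.

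Markers of other cells were compared between vesicles and cells, since Mir21a is expressed by many cell types. The 22 mesenchymal loci in the files summed to 34.7% of counts in naive EV, 36.5% in primed EV, 41.3% in naive ASC and 40.9% in primed ASC. Of these sums Mir143 alone made up 22.6%, 22.5%, 13.9% and 7.43% of counts, in that order. The rest of the list thus held a smaller share in EV than in ASC in both states. Of the 21 mesenchymal loci tested, 3 were higher and 8 lower in EV in naive samples, and 6 and 9 in primed samples. Of all 245 loci, 33.5% were higher and 32.7% lower in naive samples, and 35.9% and 32.2% in primed samples. The 7 blood cell loci ranged from 0.361% to 1.49% in naive EV and from 0.147% to 0.625% in primed EV. In naive ASC they ranged from 0.0128% to 0.0214% and in primed ASC from 0.00916% to 0.0559%, with Mir363 at 0 in all ASC libraries. All 6 tested blood cell loci were higher in EV in both states, beside 33.5% of all 245 loci in naive and 35.9% in primed samples.

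The endothelial Mir126a, whose place RefSeq also gives to Mir126b on the other strand, held 0.559% of naive EV, 0.351% of primed EV, 0.0160% of naive ASC and 0.0286% of primed ASC counts. The 10 epithelial loci summed to 0.731%, 0.565%, 1.48% and 0.868%, most of it at Mir182, which held 0.571% of naive EV and 1.20% of naive ASC counts. Of the 9 epithelial loci tested, 3 were higher and 0 lower in EV in each state. The count higher lay near the 33.5% and 35.9% of all loci, of which 32.7% and 32.2% were lower. Their median log2 fold changes were 0.70 and 1.07, against -0.24 and 0.01 for all tested loci except Mir21a, the list included. Muscle, liver and neural lists each stayed below 0.01% of counts in every library. Blood and endothelial loci thus moved with Mir21a between cells and vesicles, and their part in the Mir21a difference was not tested. In naive EV 4, the library with the highest blood cell share, Mir21a held 11.7%, and without that library its log2 fold change was 3.02 in naive samples. Primed EV 4 had the highest blood cell share of primed EV, 0.625%, and the lowest Mir21a share of the 10 EV libraries, 9.58%. Naive EV 1 had the lowest blood and endothelial share of naive EV, 0.694%, and the highest Mir21a share, 11.7%.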

How the data were processed

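The authors deposited 1 file of raw counts per library, with no normalization. Per the file headers, featureCounts 1.5.3 assigned reads to Ensembl 76 miRNA exons without strand. Per the submitters' processing notes, bcl2fastq, STAR 2.0.4, Subread and featureCounts 1.45 were used with GRCm38. How reads were trimmed and aligned is not given in the sources used here.

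Mir21a was found by its identifier in GENCODE M21, where 1899 of 2009 loci matched; 14 loci took the name of the RefSeq hairpin at their place. Loci were kept by filterByExpr (245 loci, 99.957% of counts), scaled by TMM and fitted with 1 mean per group over 18 libraries by edgeR 4.0.16 (R 4.3.3, limma 3.58.1). Calls use the quasi-likelihood test at an adjusted p of 0.05. SE is the size of the log2 fold change divided by the square root of F. log2 CPM uses a prior count of 2. Tested on simulated data for naive EV against naive ASC (245 loci), the fit called 189 of 200 loci changed by 2 log2 units with the right sign, and 1 of 45 unchanged loci. As many loci were changed up as down, which keeps TMM centred, so an error of scaling could not show there. With 45 unchanged loci the rate of false calls is known only roughly. DESeq2 1.42.0, limma-voom and other scalings, filters, replicate blocks and left-out libraries were alternatives. A comparison with hairpin GC content and values relative to the median locus were added after the data were seen.

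Named loci are Mir21a, its copies, the 5 most like it, the 5 most abundant per group, its 3 neighbours on each side in fold change, loci of at least 1%, and up to 4 members per list. Mir140, Mir155, Mir146, Mir221, Mir222, Mir126a, Mir29b-1 and Mir363 were also named after their values were seen. Members and lists were chosen with earlier results of these data known. Each read stands for 1 small RNA, so counts were not divided by locus length.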

Additional observations from a re-analysis of the deposited data

How the results depend on the processing

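The EV against ASC difference of Mir21a kept its direction under all 12 other settings and with each of the 18 libraries left out. In naive samples it ran from 2.63 (library totals alone) to 3.26, and from 2.98 to 3.30 with 1 library left out. In primed samples it ran from 2.85 (library totals alone) to 3.68, with 3.28 on counts thinned to the shallowest library, and from 3.48 to 3.60 with 1 library left out. Priming in EV gave 0.051 with TMMwsp scaling and -0.087 with library totals alone, and 0.10 to 0.32 with 1 library left out. Priming in ASC ran from -0.34 to -0.11, and from -0.43 to -0.12 with 1 library left out. The difference between the priming effects ran from 0.19 to 0.58, and from 0.22 to 0.58 with 1 library left out.

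With 1 library left out, the share of Mir21a ran from 10.9% to 11.4% in naive EV, 10.1% to 10.6% in primed EV, 1.66% to 1.98% in naive ASC and 1.30% to 1.51% in primed ASC. Without Mir22 and Mir143 in the total it was 22.0%, 21.3%, 2.62% and 1.85% in that order, since the total is smaller.

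Loci passing fell from 162 to 100 in naive EV against naive ASC and from 167 to 99 in primed samples on thinned counts, which hold fewer counts, and ran from 147 to 164 and from 154 to 168 with 1 library left out. For priming in EV, 2 loci became 8 without a filter, 5 with DESeq2, 7 with the replicate block by title number, 1 with TMMwsp, library totals or the stricter filter, 0 on thinned counts, and 1 to 8 with 1 library left out (8 without primed EV 2). For priming in ASC, 25 became 40 with DESeq2, 15 with both groups fitted alone, 8 on thinned counts, and 6 to 33 with 1 library left out (6 without naive ASC 3 or naive ASC 4). The cause was not tested.

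Not every same-numbered pair deviated together: correlations by title number ran from -0.16 to 0.42 in naive EV and ASC (3 of 4 pairs over 0.1), from 0.08 to 0.39 in primed EV and ASC (3 of 5), from 0.05 to 0.52 in naive and primed EV (3 of 5) and from 0.05 to 0.32 in naive and primed ASC (2 of 3). By source name number, which differs for primed EV 1, 4 of 5 pairs of naive and primed EV were over 0.1. Libraries of unlike numbers were not compared, so whether the numbers mark a shared source was not settled. The main fit did not pair samples, and the ratios of same-numbered libraries are a description only. With the replicate block by title number Mir21a was at 3.15 in naive and 3.61 in primed samples. Depth did not limit Mir21a itself, which had at least 3348 counts in every library, but it limited Mir190a, Mir147 and Mir429.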
